A study of Mus musculus with 8 samples.

Results

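The genes described here are 10 smooth muscle contractile genes, chosen by symbol among the 24421 genes listed in every library. They are the actins Acta2, Actc1 and Actg2, the transgelins Tagln and Tagln2, the calponins Cnn1 and Cnn2, the myosin regulatory light chain Myl9, and the tropomyosins Tpm1 and Tpm2. They were followed in R1 mouse embryonic stem cells (ESCs), an established pluripotent line, before (Undiff) and after (Day4) differentiation. Day4 samples were embryoid bodies, floating aggregates of cells, that had been exposed to 2 µM retinoic acid (RA) for 4 days, the concentration being the one in the series' design text. Undiff samples had no RA, and the sources differ on their form: the labels give embryoid bodies as the tissue of every sample, while the study's methods describe Undiff as ESCs kept in growth medium with Lif. No genotype, transgene or sort separated the groups, and all of them came from the same line. Day4 cells were also cultured longer and without Lif, so RA, aggregation, time in culture and loss of Lif cannot be told apart. Polyadenylated RNA of each state was sequenced with the ONT Direct RNA kit, which reads native RNA strands (500 ng of input), and with the ONT cDNA kit, which reads a PCR-amplified copy (50 ng of input). Each of the 4 groups had 2 replicates, giving 8 libraries, and the study's methods describe 2 biological replicates per state whose RNA went to both kits. The kits are therefore repeat readings of the same cultures, not further replicates of a state.

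In smooth muscle, force comes from myosin II filaments pulling on actin filaments, and the motor is switched on when its regulatory light chain is phosphorylated. Tropomyosins lie along the actin filament, and calponins and transgelins bind to it. Many genes of this apparatus are targets of serum response factor (SRF), a transcription factor that binds a short DNA motif called the CArG box. Several are also active outside smooth muscle, in fibroblasts and early heart cells, and Cnn2, Tagln2 and the tropomyosin genes are expressed in many cell types.

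Reads on genes numbered 283461 to 907489 in the Direct RNA libraries and 948657 to 2088592 in the cDNA libraries, and values are given as CPM, reads per 1e6 reads on genes. A level of 3 reads, taken as the floor, came to 3.31 to 10.6 CPM in Direct RNA and 1.44 to 3.16 CPM in cDNA. The check of the states by 8 genes of undifferentiated cells, such as Pou5f1, matched the labels: all 8 were lower at Day4 with both kits. Together the 10 genes took 0.0517% to 0.125% of the reads of a library. DESeq2 fits over all genes of a kit called a gene changed where 3 conditions held: a Benjamini-Hochberg adjusted p no higher than 0.05, a shift of 1 or more on the log2 scale, and an average of 5 or more normalized counts. Of the 10 genes, 7 reached that mean in Direct RNA and 8 in cDNA. Log2 fold changes from DESeq2 are shrunken, and SE is their standard error.

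Acta2, which encodes smooth muscle α-actin, was called higher at Day4 by DESeq2 with both kits, and no other member was called by DESeq2 with either. In Direct RNA, 920 of 9646 genes (9.54%) were called higher at Day4 and 7.67% lower, and 1 of the 10 members was called higher and 0 lower. In cDNA, 8.69% of 10271 genes were called higher and 9.24% lower, and again 1 member was called higher and 0 lower. Over the members with a mean count of at least 5, the median log2 fold change was 0.82 in Direct RNA, where the median over all such genes was 0.03. In cDNA it was 0.27 against 0.00186 over all genes. By edgeR's quasi-likelihood test, which called more genes overall (18.7% higher and 15.1% lower in Direct RNA, 17.1% and 15.5% in cDNA), the called members were Acta2, Myl9, Tpm1 and Tagln in Direct RNA and Acta2, Myl9 and Tagln in cDNA. On the base used for all genes, a mean count of at least 5, DESeq2 called 1 of 7 members in Direct RNA and 1 of 8 in cDNA. A count of 1 among so few members does not separate their share from that of all genes.

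**Figure D1:**
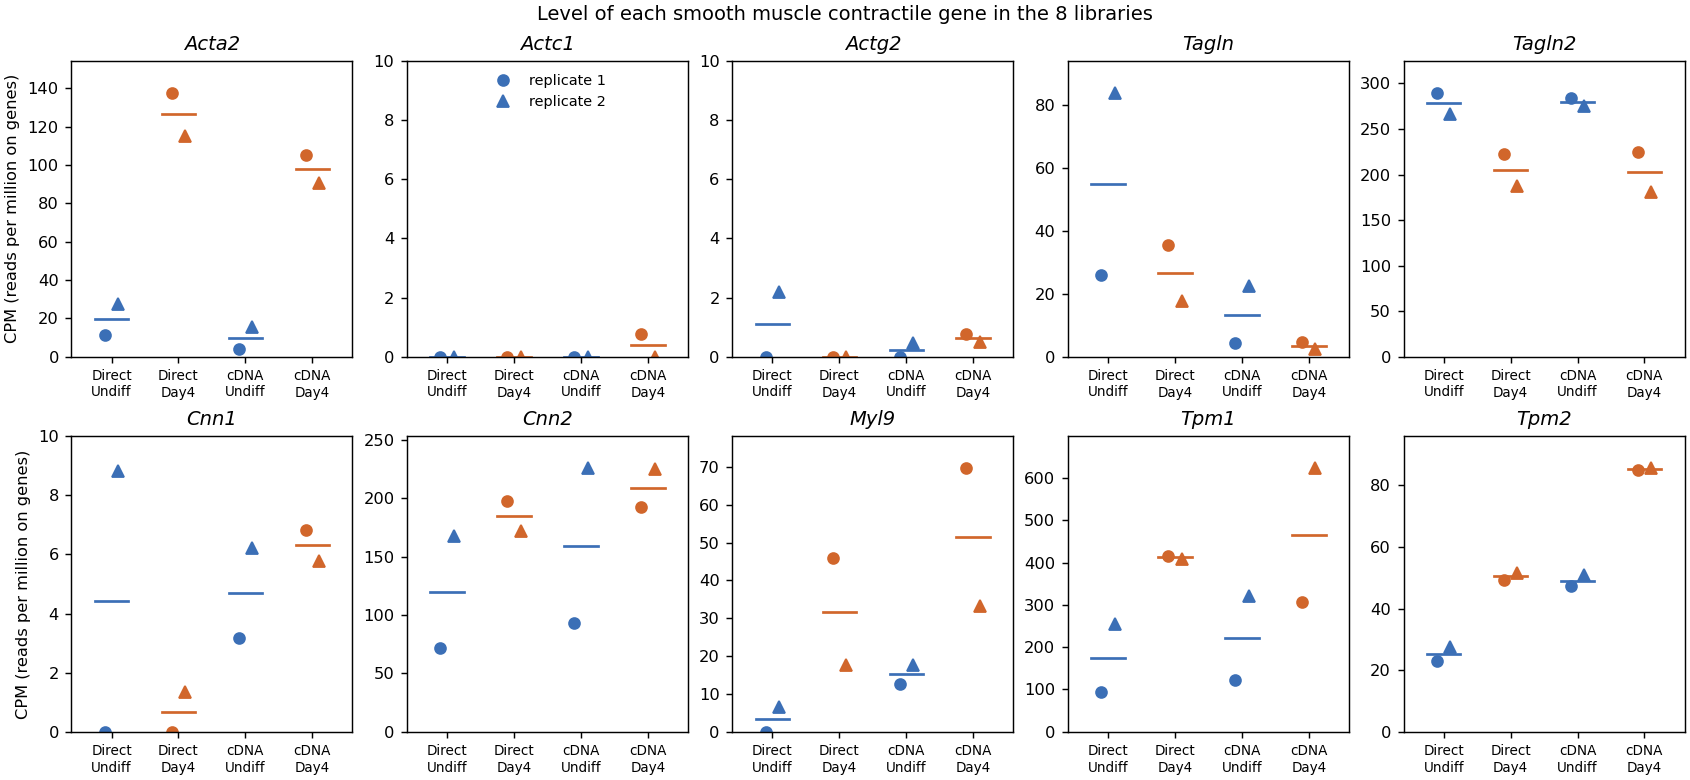
CPM (linear axis from 0, a different scale in each panel) of each of the 10 genes in the 8 libraries, with Undiff in blue, Day4 in orange, circles for replicate 1, triangles for replicate 2 and a line at the mean of each group. Acta2 is separated between the states with both kits, Actc1 and Actg2 stay at 0 to 2 reads, and the blue triangle of Tagln stands above every other Tagln value of its kit.

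Acta2 lies on chromosome 19 at chr19:34241090-34255590 on the minus strand (GRCm38), and its longest transcript has 9 exons and 2035 bases. In Direct RNA it was at 11.5 and 27.6 CPM in the Undiff replicates and at 138 and 115 CPM in the Day4 replicates. The cDNA levels were 4.22 and 15.3 CPM in Undiff and 105 and 90.5 CPM in Day4. With each kit the 2 Day4 libraries thus lay above the 2 Undiff libraries, and the kits read the same 2 cultures of each state. These values rest on 4, 25, 39 and 85 reads in Direct RNA and on 4, 32, 139 and 188 reads in cDNA.

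The mean of Acta2 went from 19.5 ± 11.4 to 126 ± 15.8 CPM in Direct RNA (SD, n = 2), a 6.48-fold difference of means. In cDNA it went from 9.77 ± 7.85 to 98.0 ± 10.6 CPM (SD, n = 2), a 10-fold difference. The size of the fold depended on the library: between libraries numbered replicate 1 it was 12 (Direct RNA) or 25 (cDNA), and between those numbered replicate 2 it was 4.18 or 5.91. With DESeq2 the Direct RNA log2 fold change was 2.36 (SE 0.60, adjusted p = 0.00158) and that of cDNA 2.84 (SE 0.59, adjusted p = 5.96e-05). With edgeR the adjusted p was 6.4e-07 and 2.15e-07. The call was lost in Direct RNA when Undiff replicate 1 (1.83, adjusted p = 0.169), Day4 replicate 1 (2.19, adjusted p = 0.126) or Day4 replicate 2 (2.36, adjusted p = 0.146) was left out of the DESeq2 fit, and in cDNA without Day4 replicate 1 (2.54, adjusted p = 0.0606). Leaving out Undiff replicate 2 raised the Direct RNA value to 3.004 (adjusted p = 0.0494). The same step raised that of cDNA to 3.79 (adjusted p = 0.000821), and leaving out cDNA Undiff replicate 1 gave 2.25 (adjusted p = 0.0123). The direction was kept in each of these fits. A state left with 1 library has no spread of its own, so in these fits, for Acta2 and the genes below alike, that library is assumed to vary like those of the other state.

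Among the 6 actin genes of the count files, Acta2 was a minor part in Undiff and a larger one at Day4. It took 1.75% and 1.42% of actin reads in Direct RNA Undiff and 15.2% and 25.9% in Direct RNA Day4. In cDNA it took 0.0334% and 0.363% in Undiff and 2.55% and 4.16% in Day4. The share is relative to the other actins, and Actb, the cytoplasmic β-actin, had lower means at Day4. Its mean went from 1100 to 387 CPM with Direct RNA (log2 fold change -1.43, adjusted p = 0.486 with DESeq2 and 1.4e-06 with edgeR). With cDNA it went from 8281 to 2945 CPM and was called lower by both tools (-1.76, adjusted p = 0.0132 with DESeq2). In Direct RNA Actb had 157 and 1588 reads in Undiff and 167 and 136 in Day4. In CPM these states overlapped, and the lower Direct RNA mean at Day4 rested on Undiff replicate 2. Both the higher Acta2 and, where it was lower, Actb thus enter the share. The lower share in cDNA than in Direct RNA went with the level of Actb, which had 136 to 1588 reads in the Direct RNA libraries and 4030 to 11879 in the cDNA libraries. The coding sequence of Acta2 was 82.5% identical in its bases to that of Actc1 and 85.4% to that of Acta1, the skeletal muscle actin, so a read cut short could have been given to the wrong actin. Whether that happened was not tested.

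The other muscle actins were at the limit of detection. Actc1, the α-actin of embryonic and adult heart, had 1 read in cDNA Day4 replicate 1 and 0 reads in the other 7 libraries. Actg2, the γ-actin of visceral smooth muscle, had 2 reads in Direct RNA Undiff replicate 2, 1 read in 3 cDNA libraries and 0 reads in the other 4. Both genes lay under the floor of 3 reads everywhere, so no fold change is given for them and a difference between states was not detectable at this depth.

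Myl9 encodes the regulatory light chain whose phosphorylation starts contraction. It was at 0 and 6.61 CPM in Direct RNA Undiff and at 45.9 and 17.6 CPM in Direct RNA Day4. The cDNA kit gave 12.7 and 17.7 CPM in Undiff and 69.8 and 33.2 CPM in Day4. Every Day4 library was above every Undiff library of its kit, and the Day4 replicates differed from each other by more than the Undiff replicates did.

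Myl9 did not pass the DESeq2 thresholds. Its log2 fold change was 2.38 (SE 1.06, adjusted p = 0.146) in Direct RNA, where it rests on 6 reads in Undiff and 26 in Day4, and 1.40 (SE 0.63, adjusted p = 0.154) in cDNA. With edgeR it was called with both kits (adjusted p = 0.00456 and 0.0197). Its size rested on single libraries: with 1 left out the DESeq2 value ran from 1.32 (without Day4 replicate 1, adjusted p = 0.93) over 1.605 (without Undiff replicate 1) to 3.37 (without Undiff replicate 2, adjusted p = 0.345) for Direct RNA. For cDNA it ran from 0.68 (without Day4 replicate 1, adjusted p = 0.973) to 1.87 (without Day4 replicate 2, adjusted p = 0.298). Within the group of regulatory light chains, the broadly expressed Myl12a and Myl12b held most reads, and Myl9 took at most 6.4% of them in any library. Its coding sequence was 86.3% identical in bases to that of Myl12b.

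Tpm1 and Tpm2 encode tropomyosins. Tpm1 was at 94.7 and 256 CPM in Direct RNA Undiff and at 416 and 410 CPM in Day4. In cDNA it was at 123 and 322 CPM in Undiff and at 306 and 624 CPM in Day4. The groups did not overlap in Direct RNA and did in cDNA, where Day4 replicate 1 was below Undiff replicate 2.

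The log2 fold change of Tpm1 was 1.06 (SE 0.42, adjusted p = 0.091 with DESeq2, 0.00872 with edgeR) in Direct RNA. In cDNA it was 0.71 (SE 0.48, adjusted p = 0.454 with DESeq2, 0.172 with edgeR). Without Undiff replicate 2 the Direct RNA value was 1.958 and was called by DESeq2 (adjusted p = 0.0269), and without Undiff replicate 1 it was 0.44 (adjusted p = 0.952). The cDNA value was 1.42 without Undiff replicate 2 (adjusted p = 0.153), 0.16 without Undiff replicate 1 (adjusted p = 0.951) and 0.29 without Day4 replicate 2 (adjusted p = 0.968), so with both kits its size rested on single libraries.

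Tpm2 had replicates close to each other in every group. It was at 23.0 and 27.6 CPM in Direct RNA Undiff and at 49.4 and 51.5 CPM in Day4. With cDNA the values were 47.4 and 50.8 CPM in Undiff and 84.97 and 85.7 CPM in Day4. The states did not overlap with either kit, and the means differed 2-fold in Direct RNA and 1.74-fold in cDNA. Neither difference was called (0.82 with SE 0.70 and adjusted p = 0.625 in Direct RNA, and 0.46 with SE 0.47 and adjusted p = 0.727 in cDNA, as DESeq2 log2 fold changes).

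**Figure D2:**
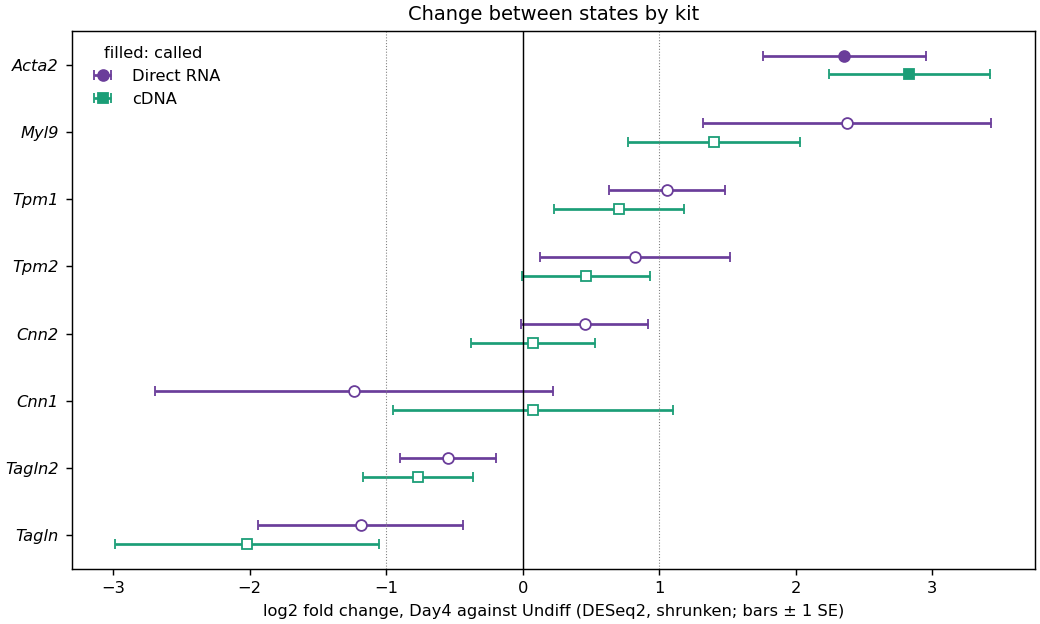
Log2 fold change of Day4 against Undiff (horizontal axis, DESeq2, shrunken) for 8 of the genes, with Direct RNA as circles, cDNA as squares, bars of 1 SE and filled symbols for called genes. Acta2 alone is filled, at 2.36 and 2.84, and Tagln2 and Tagln lie below 0 with both kits.

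The makeup of the tropomyosin reads differed between the states through genes outside the 10. Tpm4, a cytoplasmic tropomyosin, was called higher at Day4 with both kits (2.49 with SE 0.36 and adjusted p = 8.91e-10 in Direct RNA, and 2.21 with SE 0.41 and adjusted p = 2.76e-06 in cDNA, as DESeq2 log2 fold changes). Its share of tropomyosin reads was 16.1% and 15.9% in Direct RNA Undiff and 54.7% and 44.6% in Day4. Tpm3, another cytoplasmic tropomyosin, went from 61.1% and 44.3% of those reads to 11.9% and 14.1% in Direct RNA, where it was called lower (log2 fold change -1.06, SE 0.35, adjusted p = 0.0283). In cDNA Tpm3 was not called (log2 fold change -0.79, adjusted p = 0.237).

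Tpm1 held 18.3% and 35.9% of tropomyosin reads in Direct RNA Undiff and 29.9% and 36.7% in Day4. In cDNA it held 27.3% and 42.6% in Undiff and 35.4% and 48.2% in Day4. The share of Tpm1 therefore overlapped between the states with both kits. Tpm2 held between 3.54% and 10.5% in every library.

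**Figure D3:**
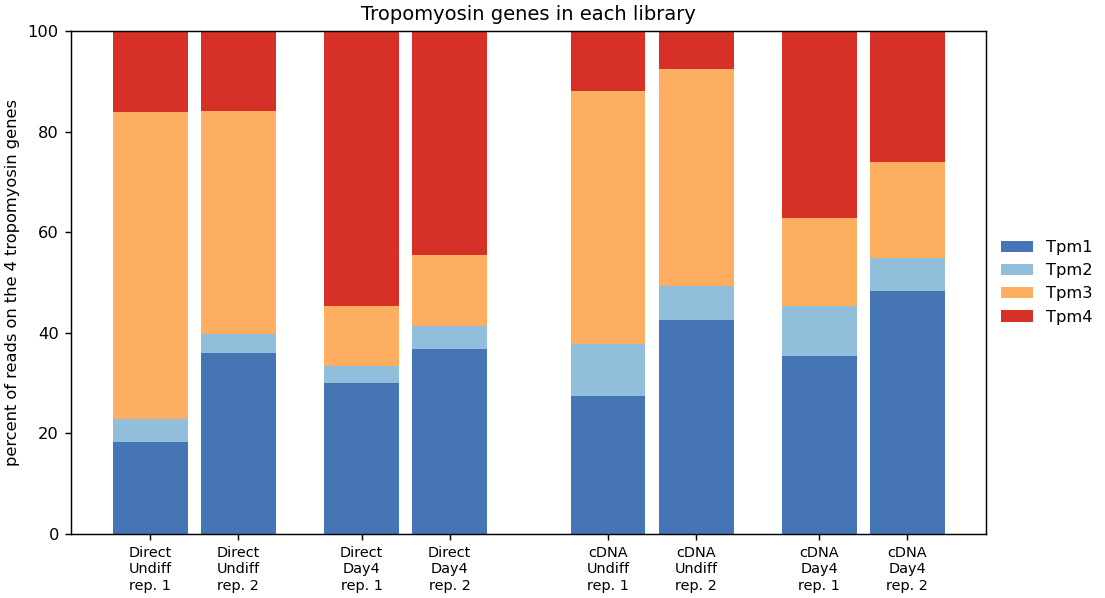
Percent of the reads on the 4 tropomyosin genes (vertical axis) that each gene took in each of the 8 libraries, as stacked bars. The share of Tpm4 is 7.48% to 16.1% in the Undiff libraries and 26.0% to 54.7% in the Day4 libraries, and that of Tpm3 is lower in every Day4 library than in every Undiff library.

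Tagln encodes transgelin, or SM22α, an actin-binding protein used as an early marker of smooth muscle. In Direct RNA it was at 25.8 and 83.8 CPM in Undiff and at 35.3 and 17.6 CPM in Day4. The cDNA values were 4.22 and 22.5 CPM in Undiff and 4.55 and 2.41 CPM in Day4. With each kit Undiff replicate 2 was the highest library and the states overlapped.

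With DESeq2 the log2 fold change of Tagln was -1.19 in Direct RNA (SE 0.75, adjusted p = 0.409) and -2.02 in cDNA (SE 0.97, adjusted p = 0.193). With edgeR it was called lower at Day4 with both kits (-1.45, adjusted p = 0.0109 and -2.39, adjusted p = 0.00113). Without Undiff replicate 2 the DESeq2 value was -0.08 (adjusted p = 0.989) in Direct RNA and -0.49 (adjusted p = 0.994) in cDNA, so its size rested on that replicate. Within replicate 1 the ratio of Day4 to Undiff was 1.37 in Direct RNA and 1.08 in cDNA, and within replicate 2 it was 0.21 and 0.107. On the opposite strand Tagln shares 108 of its 1988 exon bases (5.43%) with Pcsk7, and the study's methods name a strand-specific setting of the gene counts for Direct RNA alone.

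Tagln2 encodes the broadly expressed transgelin and had closer replicates than Tagln. It was at 290 and 267 CPM in Direct RNA Undiff and at 222 and 187 CPM in Day4. In cDNA it was at 284 and 276 CPM in Undiff and at 225 and 181 CPM in Day4. Every Day4 library was below every Undiff library, by 0.736-fold and 0.724-fold in the means. The difference was not called (-0.55 with SE 0.35 and adjusted p = 0.418 in Direct RNA, and -0.77 with SE 0.40 and adjusted p = 0.26 in cDNA, as DESeq2 log2 fold changes).

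Cnn1 encodes calponin 1, an actin-binding protein typical of differentiated smooth muscle. It had 0 and 8 reads in Direct RNA Undiff, 0 and 1 in Day4, 3 and 13 in cDNA Undiff and 9 and 12 in cDNA Day4. Its cDNA level was 3.16 and 6.22 CPM in Undiff and 6.83 and 5.78 CPM in Day4, and the states overlapped with both kits. The cDNA log2 fold change was 0.08 (SE 1.03, adjusted p = 0.979 with DESeq2), and in Direct RNA the mean count of 1.33 was under the minimum of 5.

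Cnn2 encodes the calponin found in many non-muscle cells. It was at 71.7 and 168 CPM in Direct RNA Undiff and at 198 and 172 CPM in Day4. In cDNA it was at 92.8 and 226 CPM in Undiff and at 193 and 225 CPM in Day4. The states did not overlap in Direct RNA, by a margin of 168 to 172 CPM, and overlapped in cDNA. The log2 fold change was 0.45 (SE 0.47, adjusted p = 0.729) and 0.08 (SE 0.46, adjusted p = 0.951) with DESeq2.

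Counting libraries rather than tests, 5 of the 7 members with a mean of at least 5 reads had every Day4 library above every Undiff library in Direct RNA (Acta2, Cnn2, Myl9, Tpm1 and Tpm2) and 1 had every Day4 library below (Tagln2). Among all genes with such a mean, 36.9% were separated upward and 30.4% downward. In cDNA 3 of 8 members were separated upward (Acta2, Myl9 and Tpm2) and 1 downward (Tagln2), where 44.1% and 22.2% of all genes were. The cDNA shares of the members were near or below those of all genes upward.

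Levels of different genes are set beside each other both as CPM and per kilobase of the longest transcript. A long read stands for 1 molecule, so division by length can itself place a short gene too high. Per kilobase, Tagln2 was highest in Undiff at 175 CPM per kb in Direct RNA and 176 in cDNA. Tpm1 followed with 60.6 and 77.0, and Cnn2 with 48.6 and 64.8, these neighbours being within the spread of their replicates. Tpm1 and Tagln2 changed places at Day4, with 143 and 129 CPM per kb in Direct RNA and 161 and 128 in cDNA, but the Day4 replicates of Tpm1 in cDNA spread too widely to place it above Tagln2. In Direct RNA Acta2 went from 9.59 to 62.1 CPM per kb, in cDNA from 4.8 to 48.1, and ranked behind Tpm1, Tagln2 and Cnn2 at Day4 with both kits. In undivided CPM the Undiff means of Tagln2, Tpm1 and Cnn2 had the same order, but in cDNA Undiff replicate 2 Tpm1 (322 CPM) was above Tagln2 (276 CPM), so these neighbours are not separated there. Acta2 was behind the same 3 genes in mean CPM at Day4. The Day4 mean of Myl9 was above that of Tpm2 per kb (28.1 and 45.7 against 23.2 and 39.2), which held in replicate 1 and not in replicate 2 of either kit, so per kb the order of this pair is not set. In CPM Myl9 was below Tpm2 in each Day4 library (means of 31.7 and 51.5 against 50.5 and 85.3). Cnn1 stayed at or under 2.65 CPM per kb in every group.

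The replicates of Undiff differed in a set of these genes with both kits. Undiff replicate 2 over replicate 1 was 2.4 in Direct RNA and 3.63 in cDNA for Acta2, and 3.24 and 5.34 for Tagln. For Cnn2 it was 2.33 and 2.44, and for Tpm1 2.7 and 2.61. These 4 members were over 2 with both kits, where 5.15% of all genes with at least 20 reads in the group were over 2 in Direct RNA and 15.6% in cDNA. Tpm2 (1.2 and 1.07) and Tagln2 (0.92 and 0.973) were near 1, so the difference was not shared by all members.

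In Day4 the ratio of replicate 2 to replicate 1 was 0.838 and 0.858 for Acta2 and 0.5 and 0.529 for Tagln. Among the members it was over 2 only for Tpm1 in cDNA (2.04, against 0.984 in Direct RNA). Mylpf, a fast skeletal muscle light chain, moved with the Undiff replicates as well, at 238 and 516 CPM in Direct RNA and 181 and 667 CPM in cDNA. Replicate 2 was the deeper library in each group, and no label says that the same number marks the same culture with both kits. The part of depth and of the culture in these differences was not tested.

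**Figure D4:**
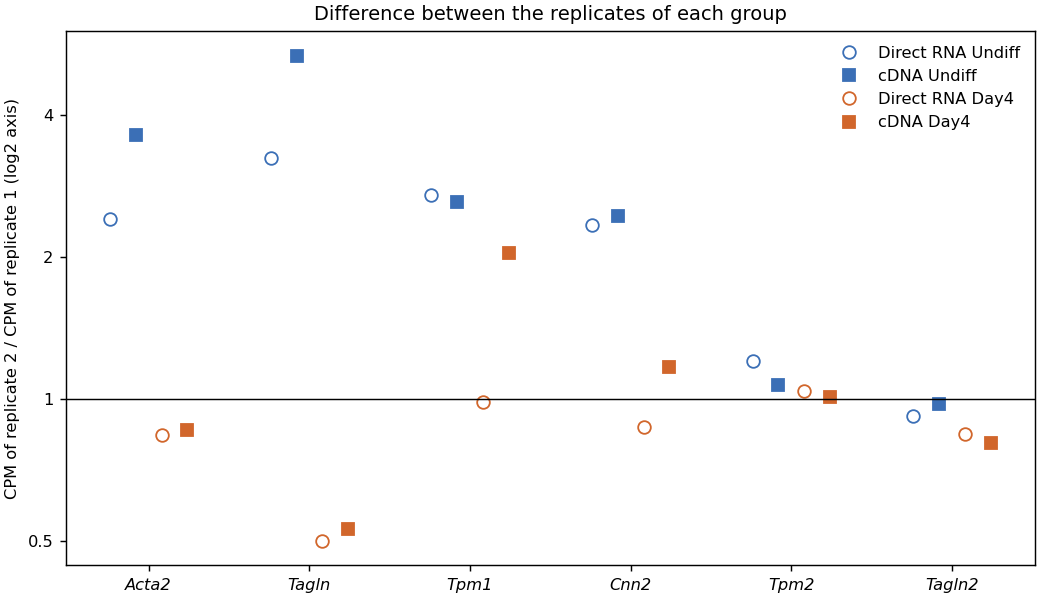
Ratio of CPM in replicate 2 to CPM in replicate 1 (vertical log2 axis) for 6 genes with reads in every library, by kit (open circles for Direct RNA, filled squares for cDNA) and state (Undiff in blue, Day4 in orange). Acta2, Tagln, Tpm1 and Cnn2 lie at 2.33 to 5.34 in Undiff, and Tpm2 and Tagln2 lie at 0.804 to 1.2 in all groups.

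The kits gave different levels for several members. With state as a covariate over all 8 libraries, 24.7% of 10426 genes with a mean of at least 5 were called higher in cDNA and 26.6% lower. Of the 10 members 7 reached that mean, and 2 of these were called higher and 1 lower. Tpm2 (log2 difference 1.54, SE 0.28, adjusted p = 3.06e-07 with DESeq2) and Myl9 (1.83, SE 0.53, adjusted p = 0.0023) were higher in cDNA. Tagln was lower in cDNA (-1.56, SE 0.58, adjusted p = 0.0222). With edgeR, which called 28.4% of genes higher and 27.7% lower, Cnn2 and Tpm1 were added to the 2 called higher and Tagln was the 1 called lower. Input amount, PCR and strand use of the counting cannot be told apart from the kit.

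The kit difference of Tagln lost its call in DESeq2 without Direct RNA Undiff replicate 2 (adjusted p = 0.203), Direct RNA Day4 replicate 1 (0.0856), cDNA Undiff replicate 1 (0.0798) or cDNA Day4 replicate 2 (0.112), at log2 differences of -1.20 to -1.35. Those of Tpm2 and Myl9 kept theirs without any single library. Cnn2 (0.99), Tpm1 (0.92) and Tagln2 (0.76) passed the adjusted p (0.00694, 0.0272 and 0.00125) and were under the size limit of 1. For Acta2 the log2 difference was 0.10 (SE 0.36, adjusted p = 0.959).

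Whether the change between states differed between kits was tested by the interaction. By DESeq2 0 of the 10 members passed (adjusted p = 1 for each), and 0 had an unadjusted p under 0.05, the smallest being 0.307. With edgeR the count was also 0. Of all 17267 genes, 0.0116% passed in DESeq2, 0.932% had an unadjusted p of at most 0.05, and 0.0811% passed with edgeR, so a difference of this kind was rarely called for any gene. For Acta2 the change was larger in cDNA by 0.49 on the log2 scale (SE 0.87), for Myl9 the difference was -1.21 (SE 1.25; -4.28 without Direct RNA Undiff replicate 2 and -0.47 without Direct RNA Day4 replicate 1) and for Tagln lower by -1.02 (SE 1.30). Errors of this size leave room for differences of more than 2-fold between the kits. With 1 library left out, the direction of this difference turned in some fits for Acta2 and Tagln, as given below.

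Upstream sequence was searched for the CArG box, the motif of SRF: a pair of C, 6 letters that are each A or T, and a pair of G. The motif reads the same on both strands, so a match covers both. The 250 bases before the gene start were taken from RefSeq promoters on GRCm38.p6, which matched 8 of the 10 members, Tagln and Actg2 being without an entry. A box was in 3 of the 8, while 1.62% of 27025 genes with an entry held at least 1. Many genes of the contractile apparatus are targets of SRF, so this share is not independent of the choice of genes. The windows of the 3 are shown with the box in capitals, 5′ to 3′ on the strand of the gene.
Actc1, chr2:114052898-114052937, minus strand: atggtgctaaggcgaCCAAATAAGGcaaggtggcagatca
Myl9, chr2:156775288-156775327, plus strand: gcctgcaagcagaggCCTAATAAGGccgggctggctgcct
Cnn2, chr10:79988529-79988568, plus strand: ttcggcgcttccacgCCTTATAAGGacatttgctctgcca

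The boxes began 47 bases before the RefSeq gene start in Actc1, 161 in Myl9 and 56 in Cnn2, and none of the 3 windows touched an exon of GENCODE. GENCODE extends Actc1 farther upstream, to position 114053548, so the Actc1 window lies inside that gene model, and the other windows lie before the GENCODE start. These 3 genes did not behave alike in the counts, with 0 to 1 read for Actc1, Day4 libraries above Undiff for Myl9 and overlapping states in cDNA for Cnn2. Acta2, Tpm1, Tpm2, Cnn1 and Tagln2 had no exact match in this window. By GENCODE most of the window lies inside the gene for Acta2, Tpm1, Tpm2 and Tagln2. Little sequence before the GENCODE start was thus searched for these genes. With 1 letter off the motif allowed, 5 of the 8 members and 21.1% of all genes held a match. Actc1 then had 3 near matches, among them the same letters as in the first of Acta2, Tpm1 had 2 and Myl9 had 1. Acta2 had 2, which are shown because Acta2 alone was called between states by DESeq2, with the near match in capitals. GENCODE places both inside the first exon of Acta2.
Acta2, chr19:34255438-34255467, minus strand: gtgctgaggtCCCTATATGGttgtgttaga
Acta2, chr19:34255388-34255417, minus strand: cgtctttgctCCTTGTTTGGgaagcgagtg

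The other genes of the contractile and SRF pathways give the setting of these changes. Of 51 such genes in the count files (actins, tropomyosins, myosin II chains, light chain phosphorylation, SRF cofactors and actin filament partners), 40 reached the mean of 5 in Direct RNA and 42 in cDNA. In Direct RNA 6 were called higher and 2 lower, beside 9.54% and 7.67% of all genes, and in cDNA 6 higher and 3 lower, beside 8.69% and 9.24%. With both kits 4 were called higher (Tpm4, Zyx, Cald1 and Pdlim7) and 0 lower.

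Cald1 encodes caldesmon, an actin- and myosin-binding protein of smooth muscle and, in a shorter form, of other cells. With DESeq2 its log2 fold change was 2.59 in Direct RNA (SE 0.48, adjusted p = 3.2e-06) and 2.54 in cDNA (SE 0.45, adjusted p = 7.38e-07). Zyx, the adhesion protein zyxin, rose by 2.27 (adjusted p = 0.000541) and 2.51 (adjusted p = 0.00468). Pdlim7, an adaptor on actin filaments, rose by 1.85 (adjusted p = 0.000293) and 1.80 (adjusted p = 0.000586). Srf itself was at 50.2 to 159 CPM in Direct RNA and at 0 to 12.9 CPM in cDNA, with states that overlapped and a log2 fold change of 0.10 (adjusted p = 0.953) and 0.54 (adjusted p = 0.921).

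Of 8 smooth muscle markers, 4 had few or 0 reads. Myh11, the smooth muscle myosin heavy chain, had 1 read in the 8 libraries together, in cDNA Undiff replicate 2. Myocd, the cofactor that drives SRF in smooth muscle, had 1 read, in cDNA Undiff replicate 1. Lmod1 had at most 2 reads and Synpo2 at most 6 in a library. Synpo2 had 2 reads in Undiff and 7 in Day4 with Direct RNA and 1 and 7 with cDNA, and was not called. Smtn, the cytoskeletal protein smoothelin, was above the floor in every library at 34.2 to 56.9 CPM in Direct RNA and 3.83 to 7.59 CPM in cDNA. Ppp1r14a, an inhibitor of the light chain phosphatase, was at 17.6 to 43.1 CPM and at 7.66 to 11.4 CPM. Neither was called between states with either kit. The list of 8 summed to 92.8 to 134 CPM in the Undiff libraries and to 342 to 533 CPM in the Day4 libraries, and Cald1 gave most of the Day4 sum. Of the 8, Cald1 was called higher with both kits and Des, the filament protein desmin, with Direct RNA (2.05, adjusted p = 0.0221), while in cDNA its log2 fold change was -0.82 (adjusted p = 0.452). The interaction for Des was -3.01 with DESeq2 (adjusted p = 0.894) and -2.81 with edgeR, which called it (adjusted p = 0.0387). The call, rather than the size of the difference between kits, thus depended on the tool. The members are called contractile genes here for their function, not for a cell type.

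Some markers of other cells that use these genes moved with the state. Of 10 mesenchyme and fibroblast markers, Direct RNA called 7 higher at Day4 and cDNA 6, beside 9.54% and 8.69% of all genes. Among them were the collagens Col1a1, Col1a2 and Col3a1, the growth factor receptors Pdgfra and Pdgfrb and the transcription factor Twist1. With each kit 7 of the 10 had a mean of at least 5. The called markers had 0 to 6 reads in Undiff with either kit, so they reached that mean through Day4. A call of higher was thus nearly set by the filter. The seventh with that mean in cDNA was Thy1, a surface protein of fibroblasts and other cells. It was at 7.38 and 3.83 CPM in Undiff and 0 and 0.963 CPM in Day4. Its log2 fold change was -2.85 (adjusted p = 0.163 with DESeq2), and edgeR called it lower (-3.34, adjusted p = 0.0131). In Direct RNA Thy1 was at -1.18 (adjusted p = 0.784), with a mean count under 5. The sum of the 10 markers was 5.75 to 20.1 CPM in the Undiff libraries and 280 to 3260 CPM in the Day4 libraries.

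Of 16 cardiac markers, Tnni1, the slow troponin I of embryonic heart and muscle, was called higher with both kits, at 2.11 to 8.61 CPM in Undiff and 53.9 to 97.1 CPM in Day4. It was the 1 called by DESeq2 among 3 cardiac markers with a mean of at least 5 in Direct RNA and among 8 in cDNA. Myl4, the atrial and embryonic light chain, had 20 reads in cDNA Undiff and 112 in Day4 (1.65, adjusted p = 0.165 with DESeq2, called higher with edgeR at 0.00513). Without a call by either tool, Myl7 had 93 and 187 cDNA reads, Tnnc1 8 and 32, Myl3 7 and 28 and Tnnt2 4 and 15. Others had fewer reads at Day4: in cDNA Myl2, the ventricular light chain, had 11 reads in Undiff and 0 in Day4 (-3.59, adjusted p = 0.0998) and Nppb had 5 and 0, and Ttn, which encodes titin, had 0 reads at Day4 with both kits after 4 and 6 in Undiff. Nppa, a marker of atrial muscle, had 0 reads, and Actc1 is given above. The cardiac list summed to 43.0 to 95.9 CPM in Undiff and 145 to 262 CPM in Day4.

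Of 10 skeletal muscle markers, Mylpf was called lower at Day4 with both kits (-4.41 and -4.35). Tnni2, the fast troponin I, went the other way, from 0 to 3.798 CPM in Direct RNA (4 reads) and from 1.05 to 8.92 CPM in cDNA (2.4, adjusted p = 0.237 with DESeq2, called higher with edgeR at 0.00527). Tnnt3 had 2 reads in Undiff and 4 in Day4 with Direct RNA and 5 and 12 with cDNA, and was not called. Myh3, the embryonic myosin heavy chain, had 14 cDNA reads in Undiff and 0 in Day4 (-4.10, adjusted p = 0.0382, with a mean count just under 5 and therefore no call). Acta1 had 6 and 15 reads in Undiff with Direct RNA and cDNA and 0 in Day4 with both, and its mean was under 5 as well.

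Of 10 genes of primitive endoderm derivatives, Direct RNA called 5 higher and cDNA 4. With both kits these were the transcription factors Gata4 (6.07 and 5.95) and Gata6 (8.13 and 6.83), the transport protein gene Ttr (4.795 and 6.88) and the matrix protein gene Sparc (1.23 and 2.02). Afp was called in Direct RNA (5.84) and missed the DESeq2 threshold in cDNA (3.90, adjusted p = 0.0501). There edgeR called Afp higher (6.72, adjusted p = 6.7e-05). Amn, a subunit of an endocytic receptor of visceral endoderm, had lower means at Day4, with 10.03 against 0.678 CPM in Direct RNA (-2.32, adjusted p = 0.36) and 6.42 against 0.963 CPM in cDNA (-2.41, adjusted p = 0.239 with DESeq2, called lower with edgeR at 0.0085). Lama1 was at -0.77 and -0.55 and was not called. The part of these cell types in the change of Acta2 was not tested, and in bulk RNA more cells of a type and more RNA per cell cannot be told apart.

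**Figure D5:**
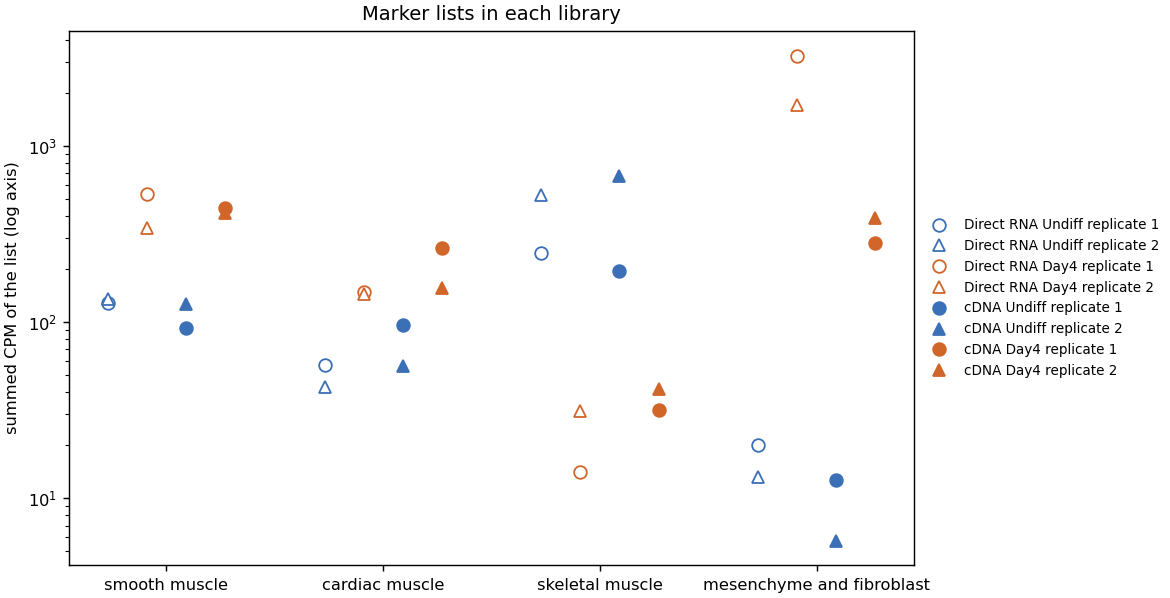
Summed CPM (vertical log axis) of 4 marker lists in each library, with Undiff in blue and Day4 in orange, open symbols for Direct RNA, filled for cDNA, circles for replicate 1 and triangles for replicate 2. The smooth muscle, cardiac and mesenchyme sums are higher in every Day4 library than in every Undiff library, and the skeletal muscle sum, mostly Mylpf, is lower.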

How the data were processed

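The authors deposited raw read counts by gene symbol for each of the 8 libraries, with no normalization. Per the study's methods they aligned reads with minimap2 to mm10 and counted them with htseq-count on the UCSC iGenomes annotation, by strand for Direct RNA. The methods name no strand setting of the gene counts for cDNA. Counters of reads given to no gene were left out of totals and tests. Reads counted as ambiguous were 2.21 to 2.38 per 100 reads on genes in Direct RNA and 8.28 to 9.23 in cDNA.

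Tests were fitted on all genes with DESeq2 1.42.0 in R 4.3.3 (Wald test, shrunken fold changes, without independent filtering or a Cook's distance cutoff, as in the study's methods), for each kit, for the kit with state as covariate, and for their interaction without shrinkage. Adjusted p-values are over all genes. edgeR 4.0.16 (quasi-likelihood, TMM) was the alternative. Other alternatives were TMM factors, no shrinkage, at least 10 reads in every library, a replicate block, filters on, CPM over all reads of a file and each library left out. The fits were tested on simulated data. SDs are over 2 replicates. PCR copies are not independent molecules, so floors cover counting error only.

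All 10 members are given whatever their outcome. From the other lists, genes called with both kits, genes that define a cell type and members of the same families could be named, and markers that went against or beside the called ones of their list were chosen after their values were seen, and for Tagln and Acta2 the 5 genes with the highest correlation. The members, lists and alternatives were chosen with earlier results of these data known. Coordinates, lengths, exon overlaps and coding sequences come from GENCODE vM21 (GRCm38, the assembly that mm10 also names), a coding sequence being the longest open reading frame of the protein-coding transcripts. Promoters come from RefSeq on GRCm38.p6.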

Additional observations from a re-analysis of the deposited data

How the results depend on the processing

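The count of members called between states was 1 with each kit, and with edgeR it was 4 in Direct RNA and 3 in cDNA. With 1 library left out it was 0 to 2 with Direct RNA and 0 to 1 with cDNA. With a minimum of 10 reads in every library it was 1 with each kit, but for Tpm1 in Direct RNA and Myl9 in cDNA, since Acta2 was then not fitted. The count of members called between kits was 3, with edgeR 5, with the minimum of 10 reads 0 of the 3 fitted, and 3 to 5 with 1 library left out. No member passed the interaction under any setting. The replicate block kept the call of Acta2 with both kits (2.35, adjusted p = 0.0351 in Direct RNA and 2.86, adjusted p = 0.000789 in cDNA by DESeq2), added Cnn2 (1.01) between kits, and lowered the calls over all genes in Direct RNA from 1660 to 843. With 2 pairs and no statement that a number marks a shared culture across states, whether the replicates share more than a number is not known. The differences between replicates correlated at 0.21 between the states in Direct RNA and at 0.50 in cDNA over 1395 genes, and between the kits at 0.12 in Undiff and -0.42 in Day4.

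Some directions changed with 1 library left out, where no adjusted p was under 0.909. Between states Cnn1 lay between -1.69 and 0.17 with Direct RNA and between -0.26 and 0.44 with cDNA, and Cnn2 between -0.10 and 1.20 and between -0.44 and 0.72. Between kits Acta2 lay between -0.068 and 0.36. In the interaction the range was -0.41 to 1.60 for Acta2, -2.16 to 0.47 for Tagln, -0.59 to 0.041 for Tagln2, -0.74 to 3.39 for Cnn1, -1.20 to 0.20 for Cnn2 and -1.32 to 0.29 for Tpm1. The cause was not tested. TMM factors moved the median of all genes from -0.01 to 0.10 in the interaction and turned no direction of a member. Over all genes edgeR called 3267 in Direct RNA against 1660, and 3355 in cDNA against 1842. With all reads of a file as the total, CPM was lower, for Acta2 at Day4 75.9 in place of 126 in Direct RNA and 55.6 in place of 98.0 in cDNA. Depth limits Actc1, Actg2 and Cnn1 most.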

Other observations

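The genes whose levels over the 8 libraries were most like those of Acta2, by Pearson correlation of log2(CPM + 1) among 8719 genes, were Parva (r = 0.995), Cyb561a3 (0.991), Mageh1 (0.989), Hp1bp3 (0.989) and Kmt2e (0.987). Parva encodes an adaptor that links integrins to actin. Those most like Tagln were Bscl2 (0.976), Fam72a (0.963), Aars2 (0.957), Fkbp5 (0.953) and Scarb2 (0.953). The points share kit and state, and the values are a description.

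The share of calponin reads on Cnn2 overlapped between the states with each kit. Cnn2 took 15.1% and 26.0% of them in Direct RNA Undiff and 28.1% and 23.9% in Day4, and 44.4% and 57.4% in cDNA Undiff and 47.3% and 46.2% in Day4. Most of the remainder was Cnn3, the acidic calponin. Tagln took 7.96% and 23.2% of transgelin reads in Direct RNA Undiff and 13.2% and 8.07% in Day4, and between 1.10% and 7.01% in the cDNA libraries.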
